A study of Capra hircus with 12 samples.

Results

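In black goat testes, 225 of 24116 listed loci were highest in the prepuberty libraries. They were chosen on their measured values, from the FPKM of all 11 libraries analysed. FPKM scales the reads of a locus by its length and by the total of its library. A member has an identifier of the form MSTRG.n, with n below a fixed limit just above the highest member number (401846), and a mean over the 11 libraries under 20 FPKM. Its lowest prepuberty value is at least 1 FPKM and lies above every value of the other 3 ages, and its prepuberty mean is at least 1.5 times its neonatal mean. The prepuberty peak is therefore a property of the selection and not a result, and every value that compares prepuberty with another age is given below as a description.

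All samples were testes of wild-type black goats (Capra hircus), sampled at 4 ages with no treatment. The ages are called neonatal (titles D3), prepuberty (D30), puberty (D90) and postpuberty (D180) in the labels, and the comparison of ages asks which RNAs change as the testis develops. There were 3 neonatal, 3 prepuberty, 2 puberty and 3 postpuberty libraries, since puberty replicate 1 was not analysed here. Whether replicates are different goats is not stated in the labels, and p-values therefore describe the spread between these samples alone, which may be technical.

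The testis before puberty holds seminiferous cords of Sertoli cells, the somatic nurse cells of the germ line, with gonocytes that become spermatogonia, and Leydig cells, which make testosterone, between the cords. At puberty the Sertoli cells stop dividing and form the blood-testis barrier, and meiotic and haploid germ cells come to make up most of the tissue. The RNA of a whole testis is a sum over these cells. In such bulk samples, fewer cells of a type and less RNA per cell cannot be told apart. StringTie gives MSTRG identifiers to the loci it assembles from reads, whether or not a known gene lies there, so a locus can be a coding gene, a long non-coding RNA or a piece of either. The identifiers matched 0 of 28911 genes of assembly ARS1.2, and the loci have no gene names, positions or sequences here. The labelled tissue could not be checked against marker genes for the same reason.

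Each value can be traced to reads. All 24116 loci had values that were whole multiples of the worth of 1 read, within 0.00792 reads, and 5 abundant loci were solved by trying lengths until all values came within 0.02 of whole reads. The library totals implied by the scaling were lowest in neonatal replicate 3 (19128357 reads) and highest in puberty replicate 2 (35614224). The members together held 191992 to 215571 reads in a prepuberty library and 45355 to 80299 in a library of another age. Implied lengths ran from 109 to 100251 bases, with a median of 3961 and quartiles of 1444 and 8282. The 2818 other loci that met the same limits on identifier, mean and lowest prepuberty value, called eligible loci here, had a median implied length of 4584.5 bases. At the members' median length, 1 FPKM stood for 101 to 106 reads in a prepuberty library.

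The members were mostly loci of low abundance. Their prepuberty means ran from 1.07 to 45.1 FPKM, with a median of 2.44 and quartiles of 1.70 and 4.07. The median of their age means was 1.14 FPKM in neonatal, 0.613 in puberty and 0.694 in postpuberty testes. Over the eligible loci outside the set, the medians were 2.11 FPKM for prepuberty, 2.57 for neonatal, 0.759 for puberty and 0.902 for postpuberty testes. Summed over the members, the 3 neonatal libraries held 354 ± 31.9 FPKM (SD), the 3 prepuberty libraries 817 ± 52.2, the 2 puberty libraries 171 ± 47.5 and the 3 postpuberty libraries 186 ± 3.95. The map of all members by library shows these levels row by row.

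**Figure D1:**
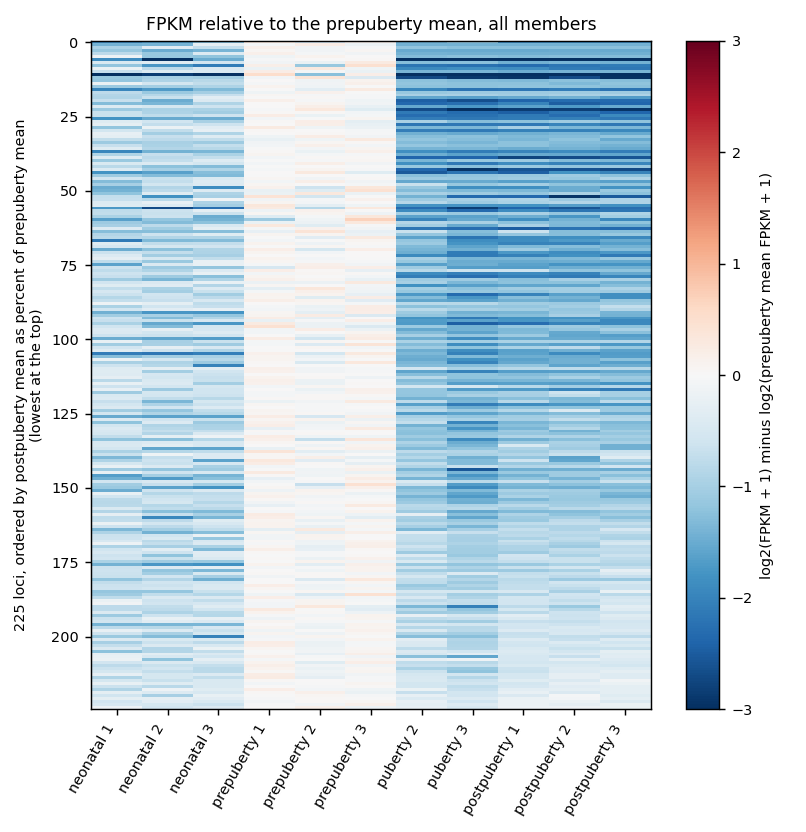
FPKM of the 225 members in the 11 libraries, as log2(FPKM + 1) minus the log2(prepuberty mean FPKM + 1) of the same locus (colour). Rows are loci ordered by the postpuberty mean as a percentage of the prepuberty mean and columns are libraries. Values below -3 take the colour of -3, and each row is highest in the prepuberty columns by construction.

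The neonatal testis was the next highest age for most members. Of the 225, 168 had their second highest mean in neonatal, 42 in postpuberty and 15 in puberty testes. The single highest library outside prepuberty was neonatal for 173 members, postpuberty for 33 and puberty for 19. The prepuberty mean was 1.24 to 19.6 times the mean of the next age, with a median of 2.04. It was at least 3 times that mean for 44 members and at least 5 times for 20. The neonatal mean was a median of 46.4% of the prepuberty mean, the puberty mean 19.7% and the postpuberty mean 21.6%. Postpuberty means lay under 10% of the prepuberty mean for 48 members and over 50% for 36.

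The most abundant member was MSTRG.110062, a short locus of 296 implied bases. Its values were 11.7, 1.38 and 15.4 FPKM in the neonatal, 43.9, 45.2 and 46.3 in the prepuberty, 0.569 and 0.294 in the puberty and 0.778, 0 and 0.781 in the postpuberty libraries. The 3 prepuberty libraries lay close together, while neonatal replicate 2 was far below the other neonatal libraries and the older testes were near 0. Its prepuberty mean of 45.1 ± 1.20 FPKM (SD, n = 3) was 4.76 times the neonatal mean, and 1055 reads in prepuberty stood against 9 in puberty and 15 in postpuberty.

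MSTRG.390573 (implied length 5530 bases) had 21.9, 11.7 and 17.0 FPKM in the neonatal, 26.6, 22.5 and 29.4 in the prepuberty, 11.2 and 7.54 in the puberty and 7.31, 5.92 and 5.21 in the postpuberty libraries. Its neonatal and prepuberty libraries nearly met, at 21.9 and 22.5 FPKM. MSTRG.73390 (implied length 16687 bases) had 11.9, 9.02 and 11.1 FPKM in the neonatal, 18.7, 17.5 and 17.5 in the prepuberty, 5.10 and 3.49 in the puberty and 4.19, 4.63 and 4.63 in the postpuberty libraries. The ages did not overlap except for puberty and postpuberty, and postpuberty stood at 25.1% of the prepuberty mean.

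MSTRG.280121 had the highest ratio to the next age, and its prepuberty libraries differed widely. Its values were 0.311, 1.22 and 0.752 FPKM in the neonatal, 21.9, 5.70 and 17.3 in the prepuberty, 0.763 and 0.648 in the puberty and 0.276, 0.568 and 0.369 in the postpuberty libraries. Prepuberty replicate 2 lay well below the other prepuberty libraries and still above all 8 other libraries. The prepuberty mean of 14.9 ± 8.33 FPKM (SD, n = 3) was 19.6 times the neonatal mean, the highest of the other ages. MSTRG.312925 shared the low prepuberty replicate 2, with 8.19, 3.27 and 6.52 FPKM in the neonatal, 18.8, 9.31 and 13.8 in the prepuberty, 4.62 and 1.96 in the puberty and 1.95, 0.986 and 1.60 in the postpuberty libraries. Its neonatal values overlapped the puberty values, and its postpuberty values were the lowest.

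MSTRG.26122 kept an almost level baseline around its peak, with 5.08, 6.52 and 4.05 FPKM in the neonatal, 12.8, 9.29 and 16.3 in the prepuberty, 7.27 and 6.54 in the puberty and 6.83, 5.45 and 5.37 in the postpuberty libraries. Its postpuberty libraries overlapped both the neonatal and the puberty libraries, the puberty libraries lay just above the neonatal ones (6.54 over 6.52 FPKM at the nearest), and its next highest age was puberty. MSTRG.303084 had 5.69, 3.50 and 2.84 FPKM in the neonatal, 14.5, 10.4 and 10.9 in the prepuberty, 2.99 and 1.37 in the puberty and 1.66, 2.22 and 2.37 in the postpuberty libraries. Neonatal values exceeded puberty values except for the overlap of neonatal replicate 3 with puberty replicate 2.

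The other 3 of the 10 most abundant members, MSTRG.243416, MSTRG.30727 and MSTRG.234989, shared a high neonatal level and a low level in the older testes. MSTRG.243416, with an implied length of 71102 bases and 65358 reads in prepuberty, had 8.47, 5.37 and 5.74 FPKM in the neonatal, 11.2, 12.4 and 11.4 in the prepuberty, 1.45 and 0.648 in the puberty and 1.09, 1.07 and 0.938 in the postpuberty libraries. MSTRG.30727 had 8.40, 6.16 and 6.47 FPKM in the neonatal, 10.7, 11.6 and 11.6 in the prepuberty, 1.37 and 1.33 in the puberty and 0.815, 0.930 and 1.03 in the postpuberty libraries, and MSTRG.234989 had 7.97, 4.79 and 8.83 FPKM in the neonatal, 10.6, 12.2 and 10.2 in the prepuberty, 1.65 and 1.47 in the puberty and 1.17, 1.59 and 1.36 in the postpuberty libraries. In all 3 loci, each neonatal library lay above each of the 5 older libraries.

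**Figure D2:**
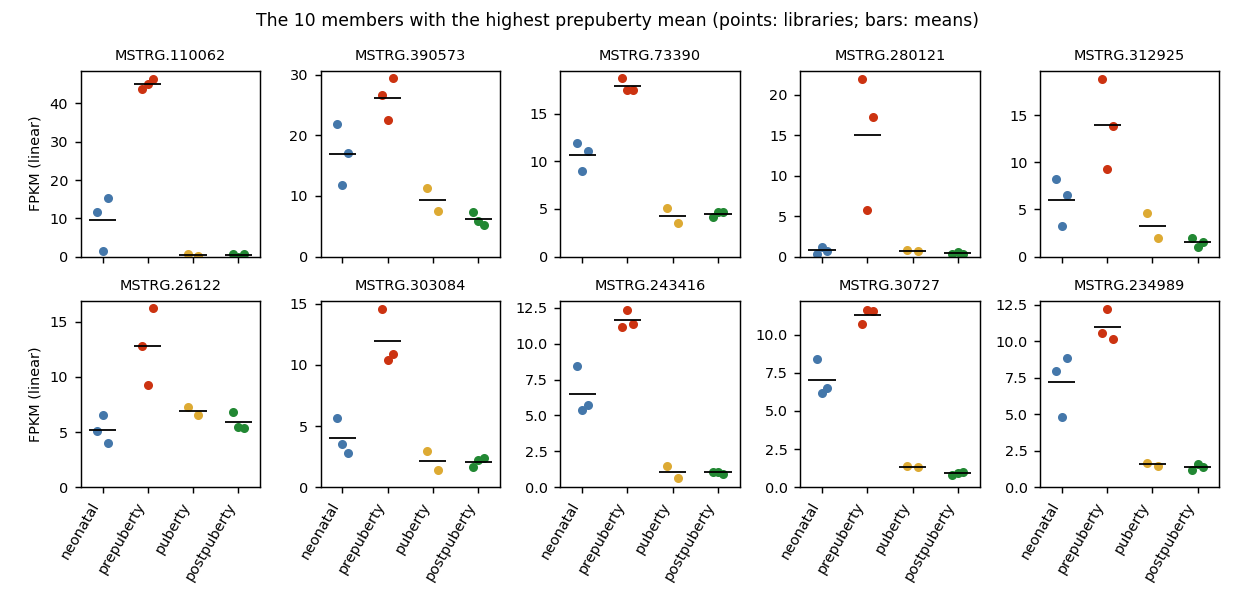
FPKM (linear axes from 0) of the 10 members with the highest prepuberty mean, by age; points are libraries and bars are means. Prepuberty points lie above all others by construction, and the neonatal points range from near the older ages (MSTRG.280121, MSTRG.26122) to well above them (MSTRG.30727, MSTRG.234989).

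Several low-abundance members had some of the highest ratios of prepuberty to the next age. MSTRG.273926 had 0.291, 0.0111 and 0.0738 FPKM in the neonatal, 1.94, 1.63 and 1.93 in the prepuberty, 0 and 0 in the puberty and 0, 0.00386 and 0 in the postpuberty libraries. In reads, 1337 in prepuberty stood against 70 in neonatal, 0 in puberty and 1 in postpuberty testes, so the older testes were at or near no signal for this locus of 9208 implied bases. MSTRG.50690 had 0.206, 0.0166 and 0 FPKM in the neonatal, 1.49, 1.54 and 1.499 in the prepuberty, 0.0579 and 0.104 in the puberty and 0.141, 0.205 and 0.0753 in the postpuberty libraries. Its 3 prepuberty values spanned a narrow range, and the other 8 libraries together held 42 neonatal, 52 puberty and 119 postpuberty reads.

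MSTRG.387728 had 0.406, 0.0490 and 0 FPKM in the neonatal, 1.47, 1.48 and 1.46 in the prepuberty, 0.117 and 0.0372 in the puberty and 0.148, 0.0913 and 0.148 in the postpuberty libraries, and MSTRG.339720 had 0.285, 0.0331 and 0.0935 FPKM in the neonatal, 1.05, 1.43 and 1.20 in the prepuberty, 0.0137 and 0.0518 in the puberty and 0.0515, 0.0578 and 0.0591 in the postpuberty libraries. In MSTRG.50690, MSTRG.387728, MSTRG.339720 and MSTRG.273926 alike, neonatal replicate 1 was the highest neonatal library. MSTRG.98062 was the last of the 6 with the highest ratios, with 2.45, 0.760 and 1.37 FPKM in the neonatal, 12.7, 5.27 and 13.1 in the prepuberty, 1.31 and 0.594 in the puberty and 1.18, 0.929 and 1.36 in the postpuberty libraries, and its prepuberty replicate 2 again lay below the others. MSTRG.355423 had no reads in the 3 neonatal libraries, and 12 prepuberty reads put it at least 3.03-fold higher in prepuberty when the empty neonatal group is set to a floor of 3 reads. It had the shortest implied length, 109 bases, and 2 puberty and 2 postpuberty reads.

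Within prepuberty, replicate 2 was the lowest library for 105 of the 225 members (46.7%), replicate 3 for 68 (30.2%) and replicate 1 for 52 (23.1%). Over the 2818 eligible loci outside the set, replicate 3 was the lowest most often, at 53.8%, and replicate 2 at 21.2%. In 9 members, prepuberty replicate 2 was at most 1/2 of each of the other prepuberty libraries, against 1 member for replicate 1 and 0 for replicate 3. Among the eligible loci outside the set, these counts were 10, 8 and 13 for replicates 2, 1 and 3. The 9 members, chosen after their values were seen, were MSTRG.52910, MSTRG.98062, MSTRG.133992, MSTRG.170590, MSTRG.191660, MSTRG.196824, MSTRG.280121, MSTRG.312613 and MSTRG.392347. In MSTRG.191660 the prepuberty values were 4.88, 2.33 and 5.0 FPKM, and in MSTRG.52910 they were 4.65, 1.27 and 5.99 FPKM. Within the whole set, the prepuberty coefficient of variation had a median of 14.4%, against 15.2% in the eligible loci outside it.

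As a description of the values the rule used, the exact 95% Poisson intervals of the lowest prepuberty library and the highest other library were apart for 105 members and overlapped for 120. These intervals cover counting error only. In 14 members the lowest prepuberty library held under 20 reads. Values close to the limits of the rule show how it divides loci. MSTRG.309921 entered with a lowest prepuberty value of 2.802 FPKM over a highest other value of 2.799, and MSTRG.68226 stayed out with 2.458 under 2.460. MSTRG.161723 entered at 1.13 over 1.12 FPKM, and MSTRG.385976 stayed out at 1.937 under 1.939. MSTRG.85292 and MSTRG.107977 had lowest prepuberty values of 1.002 and 1.01 FPKM, and MSTRG.233339 and MSTRG.21643 stayed out at 0.999 and 0.995. MSTRG.78917 and MSTRG.26633 stood at 1.506 and 1.51 times their neonatal mean, and MSTRG.191525 and MSTRG.319455 stayed out at 1.496 and 1.493 times.

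All 225 members were among the 12954 loci tested with limma on log2(FPKM + 1), which had at least 1 FPKM in at least 2 libraries. The rule puts all 3 prepuberty libraries of every member at or above that limit, so none could be lost. A locus counts as called here when its log2 change is at least 1 in size and its p, after Benjamini-Hochberg correction across the 12954 loci, is under 0.05. Because a pseudocount of 1 shrinks changes at 1 to 5 FPKM, counts at an adjusted p under 0.05 of any size are given too, a rule added after the values were seen.

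The 3 comparisons with prepuberty restate the choice of members. In prepuberty against neonatal, 48 members (21.3%) were called higher, where 0.826% of all tested loci were, and 158 (70.2%) had an adjusted p under 0.05 of any size in that direction, against 2.53%. In puberty against prepuberty, 154 were called lower (68.4%, against 13% of all loci) and 221 at any size (98.2%, against 31.7%). In postpuberty against prepuberty, the counts were 136 (60.4%, against 11.8%) and 217 (96.4%, against 30.8%). By construction 0 members passed in the opposite directions, where 1.24% of all tested loci were called lower in prepuberty than neonatal testes (7.5% at any size), 23.7% higher in puberty than prepuberty (44% at any size) and 38.7% higher in postpuberty than prepuberty (51.3% at any size). The median log2 changes of the members in these comparisons were 0.70, -1.21 and -1.15, where all tested loci had -0.03, 0.26 and 0.55. With only the 6 libraries of neonatal and prepuberty testes in the fit, 6 members were called higher (2.67%, against 0.0849% of all tested loci). The 158 became 86 without prepuberty replicate 1 (38.2%, against 1.31% of all tested loci) and 84 without prepuberty replicate 3 (37.3%, against 1.21%).

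The ages on either side of the peak can be compared with each other, since the rule only sets an upper limit on each of their libraries. That limit removes loci high in the older testes, and the neonatal limit is the tighter because of the factor of 1.5, so the members' shares are not those of freely chosen loci. In postpuberty against neonatal testes, 28 of the 225 members (12.4%) were called lower and 0 were called higher, where 17.7% and 37.6% of all tested loci were. At an adjusted p under 0.05 of any size, 107 members were lower (47.6%, against 34.6%) and 9 higher (4%, against 50.3%), and 109 did not pass. An unadjusted p under 0.05 was found for 117 members (52.0%, against 85.7% of all tested loci). The members entered the test through prepuberty. Their median levels in the ages compared, 1.14 FPKM in neonatal and 0.694 in postpuberty testes, lie near or under the pseudocount of 1. Their counts can therefore not be set on a par with the shares over all loci. Voom on recovered reads called 97 lower (43.1%, against 31.0% of all loci) and 9 higher (4%, against 48.3%). The median log2 change was -0.34 over the members and 0.50 over all tested loci. In 111 members (49.3%) all 3 neonatal libraries lay above all 3 postpuberty libraries, and in 14 (6.22%) the reverse held. Over the eligible loci outside the set, these shares were 79.2% and 6.28%.

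The split between directions depended on scaling. Rescaled to TPM, 46 members (20.4%) were called higher and 30 (13.3%) lower in postpuberty against neonatal, where 55.7% and 17.7% of all tested loci were. In puberty against neonatal these were 27 (12%) and 39 (17.3%), against 51.0% and 19.2%. Under median of ratios scaling, 1 was higher and 15 lower in postpuberty against neonatal (41.6% and 10.2% of all loci), and 3 and 14 in puberty against neonatal (33.4% and 9.12%). The median log2 change of all tested loci in postpuberty against neonatal was 0.50 with the authors' scaling, 1.92 after TPM, 0.69 under median of ratios and 0.07 under quantile normalization, and that of the members was -0.34, 0.10, -0.15 and -0.68. In each of the 4 scalings the members' median lay below that of all loci. The rule's upper limit on the postpuberty libraries favours this order, so it is no result about the members. Beside the eligible loci outside the set, the order was reversed. The median ratio of postpuberty to neonatal mean FPKM was 0.515 over 224 members and 0.304 over those eligible loci. The rule's limit on the neonatal level favours this second order.

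The plot of the neonatal against the postpuberty level shows a spread of shapes, from loci that were near 60% of their peak in neonatal testes and under 10% in postpuberty testes to loci with the opposite order. The 28 members called lower had median levels of 5.80 FPKM at the prepuberty peak, 3.41 in neonatal testes, and 0.643 and 0.667 in puberty and postpuberty. Of these, 27 also had a limma adjusted p under 0.05 for a lower level in puberty than in neonatal testes. Over all tested loci, 36.1% had one. Both comparisons use the same neonatal libraries, and the 28 were picked partly on their neonatal level, so the 27 are no separate result.

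**Figure D3:**
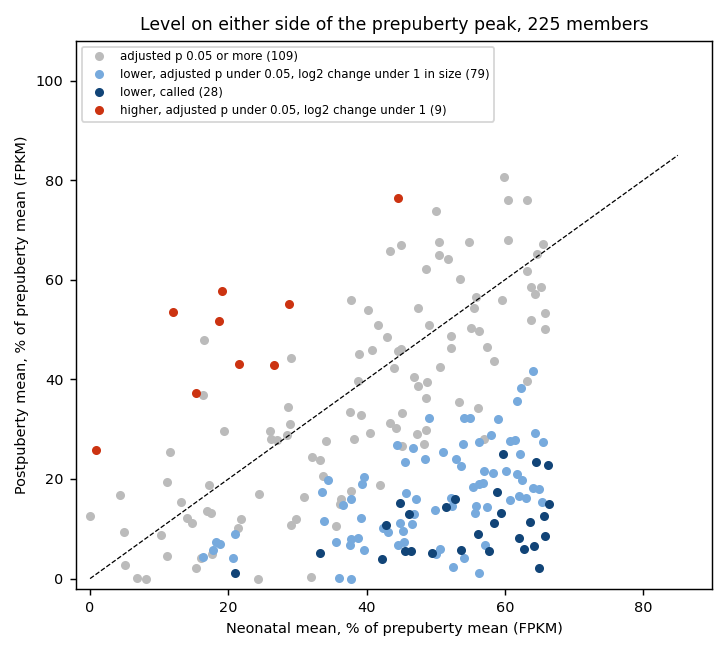
Neonatal mean (horizontal axis) and postpuberty mean (vertical axis) of the 225 members, each as a percentage of the prepuberty mean FPKM; the dashed line marks equality. Colours give the limma result of postpuberty against neonatal, with 107 members lower and 9 higher at an adjusted p under 0.05, and the neonatal axis ends near 66.4% because of the factor of 1.5 in the rule.

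The 5 members with the largest falls from neonatal to postpuberty testes were MSTRG.110062, MSTRG.30727, MSTRG.250214, MSTRG.243416 and MSTRG.250220. MSTRG.30727, whose values are given above, changed by -2.05 ± 0.12 (log2 and its SE, adjusted p = 9.55e-08 in limma) and MSTRG.243416 by -1.87 ± 0.18 (adjusted p = 2.7e-06). MSTRG.110062 fell with a log2 change of -2.43 ± 0.57 (adjusted p = 0.00214), which ranged from -1.90 without neonatal replicate 3 to -3.29 without neonatal replicate 2. MSTRG.250214 (implied length 70495 bases) had 4.42, 4.98 and 5.03 FPKM in the neonatal, 10.2, 13.4 and 8.04 in the prepuberty, 0.811 and 0.430 in the puberty and 0.605, 0.635 and 0.502 in the postpuberty libraries. It fell from 4.81 ± 0.339 to 0.581 ± 0.0693 FPKM (SD, n = 3 each; log2 change -1.88, limma adjusted p = 1.52e-06), with no overlap of these 2 ages.

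MSTRG.250220, within 10 numbers of MSTRG.250214 and with another eligible locus between them that is no member, had 3.49, 3.93 and 3.79 FPKM in the neonatal, 8.37, 11.9 and 6.35 in the prepuberty, 0.505 and 0.333 in the puberty and 0.289, 0.524 and 0.253 in the postpuberty libraries. Its prepuberty libraries stood in the same order as those of MSTRG.250214, with replicate 2 highest and replicate 3 lowest. Its postpuberty level was lower by a log2 change of -1.81 (adjusted p = 3.91e-06, limma).

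The 9 members that were higher in postpuberty than in neonatal testes at an adjusted p under 0.05 were MSTRG.401593, MSTRG.351497, MSTRG.323651, MSTRG.392347, MSTRG.327709, MSTRG.243086, MSTRG.17239, MSTRG.37609 and MSTRG.73387. All 9 stayed under a log2 change of 1 on the log2(FPKM + 1) scale. The number of such members was 2 under quantile normalization, 29 under median of ratios and 69 after TPM (40.1%, 53.6% and 58.4% of all tested loci). The first 5 are the largest rises. MSTRG.401593 (implied length 28127 bases) had 0.253, 0.288 and 0.294 FPKM in the neonatal, 2.37, 2.0 and 2.59 in the prepuberty, 1.38 and 1.25 in the puberty and 1.26, 1.16 and 1.30 in the postpuberty libraries. The libraries of an age lay close together and the older testes kept 53.6% to 56.7% of the prepuberty mean. From neonatal to postpuberty it rose from 0.278 ± 0.0221 to 1.24 ± 0.0735 FPKM (SD, n = 3 each), a change of 0.81 ± 0.10 on the log2 scale (SE, limma adjusted p = 2.06e-05). Under quantile normalization it was 0.25 (adjusted p = 0.0577).

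MSTRG.351497 had 2.90, 2.41 and 1.11 FPKM in the neonatal, 7.03, 7.90 and 7.42 in the prepuberty, 2.51 and 2.55 in the puberty and 4.33, 4.09 and 3.90 in the postpuberty libraries. It is the only member of these 5 whose postpuberty libraries all lay above its puberty libraries, and it rose from neonatal to postpuberty with a log2 change of 0.75 ± 0.19 (adjusted p = 0.00364, limma). MSTRG.323651, the longest member by implied length, had 1.84, 1.26 and 1.14 FPKM in the neonatal, 7.16, 5.07 and 7.39 in the prepuberty, 2.49 and 2.34 in the puberty and 2.48, 2.90 and 3.06 in the postpuberty libraries, and its log2 change was 0.67 ± 0.16 (limma adjusted p = 0.00193).

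MSTRG.392347 was at or near 0 in neonatal testes, with 0.0552, 0 and 0 FPKM in the neonatal, 2.52, 1.13 and 2.42 in the prepuberty, 0.520 and 0.354 in the puberty and 0.460, 0.515 and 0.595 in the postpuberty libraries. Its neonatal libraries held 9 reads in all against 1280 in prepuberty, and its level after puberty stayed at 25.8% of the peak (log2 change from neonatal 0.58, limma adjusted p = 0.00858). Under quantile normalization that change was 0.06 (adjusted p = 0.771). MSTRG.327709 had 0.0353, 0.332 and 0.454 FPKM in the neonatal, 1.43, 1.28 and 1.60 in the prepuberty, 0.813 and 0.608 in the puberty and 0.834, 0.669 and 0.981 in the postpuberty libraries, with a log2 change of 0.53 (adjusted p = 0.00422, limma) that turned to -0.12 (adjusted p = 0.394) under quantile normalization.

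Puberty against neonatal gave a similar picture, and it shares the neonatal libraries with the comparison above. There were 32 members called lower (14.2%, against 20% of all tested loci) and 0 called higher (against 23.2%). At any size, 112 were lower (49.8%, against 36.1%) and 7 higher (3.11%, against 43.3%). An unadjusted p under 0.05 was found for 123 members (54.7%, against 81.1%). Here too the members' counts are not on a par with the shares over all loci, at median levels of 1.14 FPKM in neonatal and 0.613 in puberty testes. Voom on recovered reads called 103 lower (45.8%, against 33.1%) and 6 higher (2.67%, against 44.0%). In 132 members (58.7%) all neonatal libraries lay above both puberty libraries, and in 13 (5.78%) the reverse held. Over the eligible loci outside the set, these shares were 85.2% and 3.76%. The members' median log2 change was -0.42, where all tested loci had 0.21. Puberty replicate 3 had the lower summed FPKM of members of the 2 puberty libraries (137 against 204). Without it the members' median was -0.32 (0.16 over all tested loci), and without puberty replicate 2 it was -0.50 (0.10).

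Between the 2 older ages the levels of the members were low. They entered the test through prepuberty, and in the ages compared their median levels of 0.613 and 0.694 FPKM lie under the pseudocount of 1, so their counts cannot be set on a par with the shares over all loci. In postpuberty against puberty, limma called 0 of the 225 members higher (1.26% of all tested loci) and 0 lower (0.139%). An unadjusted p under 0.05 was found for 15 members (6.67%, against 27.7%), and voom on recovered reads called 1 higher (against 1.91%) and 0 lower (against 0.116%). At an adjusted p under 0.05 of any size, 3 were higher (1.33%, against 12.6% of all loci) and 0 lower (0.332%). Without postpuberty replicate 2, limma called 1 higher (0.444%, against 1.85% of all tested loci) and 2 were higher at any size (0.889%, against 14.2%). The median log2 change with all libraries was 0.06 over the members and 0.18 over all tested loci. Without puberty replicate 2 these medians were 0.17 and 0.21, and without puberty replicate 3 they were -0.02 and 0.16. In 40 members (17.8%) all postpuberty libraries lay above both puberty libraries, and in 15 (6.67%) the reverse held, against 30.5% and 4.54% of the eligible loci outside the set.

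The 3 members that were higher after puberty were MSTRG.49401, MSTRG.28983 and MSTRG.22542. MSTRG.49401 had 1.97, 1.48 and 1.29 FPKM in the neonatal, 2.80, 2.40 and 2.23 in the prepuberty, 0.463 and 0.182 in the puberty and 1.44, 1.16 and 1.76 in the postpuberty libraries. Its puberty libraries were the lowest and its neonatal and postpuberty libraries overlapped, and its log2 value changed by 0.89 ± 0.16 from puberty to postpuberty (SE, limma adjusted p = 0.00923) and by -0.07 from neonatal to postpuberty (adjusted p = 0.649). MSTRG.28983 had 1.55, 1.63 and 2.43 FPKM in the neonatal, 3.14, 4.44 and 2.61 in the prepuberty, 0.734 and 0.0841 in the puberty and 1.55, 1.03 and 2.54 in the postpuberty libraries, with a log2 change of 0.94 ± 0.28 between the older ages (limma adjusted p = 0.0481), and postpuberty replicate 3 there nearly reached the lowest prepuberty library. MSTRG.28983 did not pass in 9 of the 11 fits that left out a library, with an adjusted p of up to 0.322 without puberty replicate 3, and MSTRG.49401 did not pass without that library (adjusted p = 0.0561).

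MSTRG.22542 had 1.82, 1.96 and 1.49 FPKM in the neonatal, 3.73, 2.84 and 3.59 in the prepuberty, 1.29 and 0.985 in the puberty and 1.80, 2.33 and 2.38 in the postpuberty libraries (log2 change 0.57, limma adjusted p = 0.0317), which did not pass without puberty replicate 3 (0.167), postpuberty replicate 2 (0.0657) or postpuberty replicate 3 (0.0862). With only the 2 older ages in the fit none of the 3 passed (adjusted p = 0.211 for MSTRG.28983, 0.184 for MSTRG.49401 and 0.194 for MSTRG.22542). MSTRG.28983 and MSTRG.22542 also failed with a replicate block (0.0844 and 0.0736), a pseudocount of 0.1 (0.0704 and 0.0593), TPM (0.0577 and 0.0580), median of ratios (0.0812 and 0.162), quantile normalization (0.143 and 0.318) and voom (0.0900 and 0.0709), and MSTRG.28983 with no filter (0.0668). The other large changes between the older ages, MSTRG.312925 with -0.72 and MSTRG.133992 with -0.58, were decreases that did not pass (limma adjusted p = 0.258 and 0.151). MSTRG.133992 had 11 reads in the puberty and 0 in the postpuberty libraries, and without puberty replicate 2 the change of MSTRG.312925 was -0.25.

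The rule did not use the order of identifiers, and the members were crowded in it. StringTie numbers the loci it assembles in sequence, and whether near numbers lie near each other on the genome could not be checked here. Of the 225 members, 75 (33.3%) had another member within 10 numbers, in 28 runs of 2 to 7 members. Within 10 numbers of the members lay 242 eligible loci, where a locus near several members counts once for each of them, and 140 of these (57.9%) were themselves members. Within 50 numbers the count was 228 of 560 (40.7%). Members make up 7.39% of the 3043 eligible loci as a whole.

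Deviations within an age were compared between members of a run and other pairs, as a description. After the mean of each age was taken from log2(FPKM + 1), the Pearson correlation over the 11 libraries had a median of 0.59 in the 84 pairs within runs and 0.10 in the 25116 other pairs. Runs differed widely: the median was -0.39 over the 3 members from MSTRG.233310 to MSTRG.233314 and for the pair MSTRG.289339 and MSTRG.289344, -0.08 for MSTRG.118399 and MSTRG.118408, and 0.08 over the 3 members from MSTRG.230145 to MSTRG.230159. These pairs share loci and libraries, and whether the loci of a run are pieces of the same gene was not tested.

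The runs differed in shape. The 4 runs of 4 or more members are plotted by library with 2 of the 6 runs of 3 members, those with the highest mean prepuberty FPKM, a choice made after the values were seen. In the run from MSTRG.70667 to MSTRG.70687, 7 of the 8 eligible loci were members. The first of them, MSTRG.70667 (implied length 58739 bases), had 2.18, 1.26 and 1.44 FPKM in the neonatal, 3.61, 3.45 and 2.89 in the prepuberty, 1.06 and 1.08 in the puberty and 1.46, 1.79 and 1.82 in the postpuberty libraries. MSTRG.70671 had 3.05, 2.16 and 2.35 FPKM in the neonatal, 5.20, 5.06 and 4.57 in the prepuberty, 0.872 and 0.993 in the puberty and 1.25, 1.40 and 1.13 in the postpuberty libraries, and MSTRG.70677 had 2.01, 1.78 and 1.54 FPKM in the neonatal, 3.00, 2.95 and 2.90 in the prepuberty, 0.628 and 0.700 in the puberty and 0.599, 0.707 and 0.607 in the postpuberty libraries. Neonatal and postpuberty libraries of MSTRG.70667 overlapped, with a log2 change of 0.05 (adjusted p = 0.75, limma), while MSTRG.70671 and MSTRG.70677 were lower after puberty by -0.63 and -0.76 on that scale (adjusted p = 0.000463 and 3.13e-05).

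Over that run of 7, the postpuberty means ranged from 18.9% to 68.1% of the prepuberty means. In the run from MSTRG.211578 to MSTRG.211595, 6 of 6 eligible loci were members. Their means stood at 27.9% to 45.1% of the prepuberty mean in puberty and at 46.0% to 67.1% in postpuberty testes. MSTRG.211578 had 1.35, 0.843 and 1.51 FPKM in the neonatal, 2.80, 2.24 and 2.78 in the prepuberty, 0.926 and 0.787 in the puberty and 1.23, 1.59 and 1.43 in the postpuberty libraries. The 4 members from MSTRG.340309 to MSTRG.340317 stood at 46.5% to 56.1% in puberty and at 56.0% to 67.6% in postpuberty testes. MSTRG.340317, the most abundant of these 4, had 1.08, 1.54 and 1.44 FPKM in the neonatal, 2.91, 2.01 and 2.34 in the prepuberty, 1.503 and 0.844 in the puberty and 1.28, 1.33 and 1.505 in the postpuberty libraries. Both runs had their lowest older values in puberty replicate 3, the exceptions being MSTRG.211580 and MSTRG.211581, with 0.522 and 0.554 FPKM in puberty replicate 2.

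The 4 consecutive loci MSTRG.181809 to MSTRG.181812 stood lower, at 13.0% to 20.4% of their prepuberty mean in postpuberty testes. MSTRG.181812 had 2.54, 2.37 and 2.28 FPKM in the neonatal, 5.15, 3.88 and 6.52 in the prepuberty, 1.02 and 0.347 in the puberty and 0.673, 0.738 and 0.610 in the postpuberty libraries, and it alone of these 4 was called lower in postpuberty than in neonatal testes (log2 change -1.02, limma adjusted p = 0.000257). In all 4, prepuberty replicate 3 was the highest library and replicate 2 the lowest of its age, and the median correlation of their within-age deviations was 0.91. The 3 members between MSTRG.374037 and MSTRG.374049 had the same order of prepuberty libraries and a lower neonatal level. MSTRG.374037, with an implied length of 80161 bases, had 0.338, 0.939 and 0.995 FPKM in the neonatal, 4.25, 3.48 and 4.74 in the prepuberty, 0.445 and 0.197 in the puberty and 0.300, 0.393 and 0.223 in the postpuberty libraries, and its prepuberty mean was 5.49 times the neonatal mean.

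The members MSTRG.292832, MSTRG.292833 and MSTRG.292835 were less alike, with a median correlation of 0.41. MSTRG.292832 had 2.31, 1.65 and 1.48 FPKM in the neonatal, 3.54, 3.52 and 3.22 in the prepuberty, 0.665 and 0.668 in the puberty and 0.859, 0.740 and 0.868 in the postpuberty libraries, while MSTRG.292833 had a single high postpuberty library at 1.86 FPKM against 0.606 and 0.772 in the other 2.

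**Figure D4:**
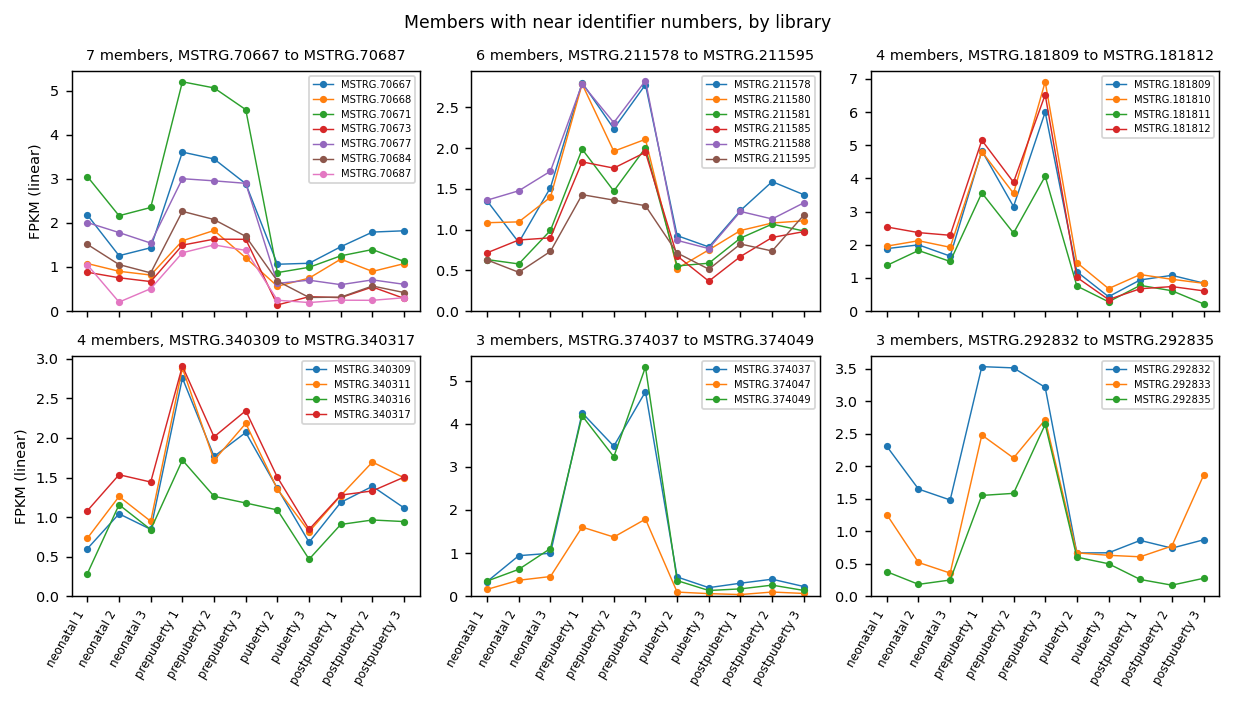
FPKM (linear axes from 0) in each of the 11 libraries for 6 runs of members with near identifier numbers, the 4 runs of 4 or more members and the 2 runs of 3 with the highest mean prepuberty FPKM; each line joins the libraries of a locus for reading and implies no order among replicates. In postpuberty, the runs at MSTRG.211578 and MSTRG.340309 stand at 46.0% or more of their prepuberty mean and those at MSTRG.181809 and MSTRG.374037 at 20.4% or less. In puberty, the run at MSTRG.211578 stands lower, at 27.9% to 45.1%.

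Among the most abundant runs, which hold 2 members each apart from the run at MSTRG.181809, near numbers did not mean equal levels. MSTRG.73387 had a prepuberty mean of 2.33 ± 0.251 FPKM (SD, n = 3) beside 17.9 ± 0.728 in MSTRG.73390. From neonatal to postpuberty, MSTRG.73387 was higher (log2 change 0.30, limma adjusted p = 0.0352) and MSTRG.73390 lower (-1.08, adjusted p = 3.28e-05). MSTRG.332206 had 6.83 ± 0.0588 FPKM in prepuberty and MSTRG.332197 had 3.56 ± 0.0570. MSTRG.209709 and MSTRG.209711 were closer, at 4.41 ± 0.0259 and 3.60 ± 0.284 FPKM, and were both lower in postpuberty than in neonatal testes (log2 change -0.91 each, limma adjusted p = 0.000157 and 0.000483).

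The conditions of the rule set the size of the group. Without the factor of 1.5 over the neonatal mean, 327 loci with MSTRG numbers under the limit had all prepuberty libraries above all others. Under the same limits, 1241 loci had all neonatal, 100 both puberty and 2362 all postpuberty libraries above all others, with 2 libraries in puberty in place of 3. The peak and the factor of 1.5 were also met by 42 loci with gene-number identifiers and 9 with MSTRG numbers above the limit, which are no members, and the limit on the mean removed 0 loci. Leaving out prepuberty replicate 2 let 323 loci meet the rule, 217 of them members. Median of ratios scaling gave 281 loci with 178 of the members, quantile normalization 492 with 224, and values rescaled to equal FPKM sums 1033 with 198.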

How the data were processed

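Total testis RNA (TRIzol) went into long non-coding RNA libraries, per the labels' protocols. The authors deposited 1 table of FPKM per library. Their processing notes name HISAT2 2.1.0 and StringTie 2.1.1, and the counting step is not given in the sources used here. FPKM is relative to a library total, of which 13.6% to 25.6% lies on the listed loci, so changes elsewhere in a library can move every value. This share differed by age, at 22.3% to 25.6% in neonatal, 19.2% to 19.7% in prepuberty and 13.6% to 18.0% in the older libraries. The FPKM sums of the listed loci, which TPM sets equal, were 125743 to 129361 in neonatal, 72751 to 78774 in prepuberty and 55125 to 67027 in the older libraries. Members were found from the deposited FPKM, and read numbers from the steps between low values, a method tested on simulated data. The members, lists and named loci were chosen with earlier results of these data known. limma 3.58.1 (R 4.3.3, with a variance trend) was fitted to log2(FPKM + 1) of all 11 libraries together, so fold changes of low loci are understated. The 12954 loci with at least 1 FPKM in at least 2 libraries were tested. Named loci are the 10 with the highest prepuberty mean, the 6 with the highest ratio to the next age, the 5 largest rises and 5 largest falls in postpuberty against neonatal, the 5 largest changes in postpuberty against puberty, the 5 runs of near identifiers with the highest mean and the values nearest each limit. No replicate pair was so alike as to be 1 library deposited again. The closing section gives the other settings tried.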

Additional observations from a re-analysis of the deposited data

How the results depend on the processing

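Of the values compared across settings for whole counts, 168 stayed within 1.5 times and 37 moved. Many of the 168 set 0 against 0 or come from the comparisons with prepuberty, which the rule fixes. The tally is therefore no measure of how firm the counts are. Of those for named loci, 277 kept their direction and stayed on the same side of the rule for a call. Settings that change only the filter, the variance trend or the libraries of ages not compared leave the log2 change the same by construction. In these settings the direction could not reverse, so they are no check of it. A call needs both the adjusted p and a log2 change of at least 1. A further 22 passed the rule newly and 1 reversed, MSTRG.327709 in postpuberty against neonatal under quantile normalization (-0.12). The named rises from neonatal and the named changes between the older ages were not called to begin with. For them the tally cannot show a loss of an adjusted p under 0.05. Under quantile normalization, such losses among the 277 include MSTRG.401593 and MSTRG.392347 in postpuberty against neonatal (limma adjusted p = 0.0577 and 0.771). MSTRG.28983 in postpuberty against puberty is another (0.143). Members called higher in prepuberty than neonatal testes numbered 158 at any size, 76 with a pseudocount of 0.1, 213 after TPM, 78 with voom on recovered reads and 6 with only both ages in the fit. In that order these were 70.2%, 33.8%, 94.7%, 34.7% and 2.67% of the members, against 2.53%, 1.6%, 7.67%, 1.35% and 0.0849% of all tested loci. Members lower in puberty than prepuberty numbered 99 under median of ratios (44%, against 7.38% of all tested loci), and lower in postpuberty than prepuberty 217 at any size (96.4%, against 30.8%). In puberty against neonatal, 7 were higher and 112 lower at any size, 7 and 100 with a pseudocount of 0.1, 27 higher after TPM, 3 and 14 under median of ratios, and 6 and 103 with voom. With a pseudocount of 0.1 these were 3.11% and 44.4%, against 44.1% and 33.0% of all tested loci, and the other shares are given above. In postpuberty against neonatal, 9 and 107 at any size, 8 and 88 with a pseudocount of 0.1, 46 higher after TPM, 1 and 15 under median of ratios, 51 lower under quantile normalization, and 9 and 97 with voom. With a pseudocount of 0.1 these were 3.56% and 39.1%, against 48.6% and 30.5% of all tested loci. Under quantile normalization 22.7% were lower, against 26.4%, and the other shares are given above. In postpuberty against puberty, 3 were higher at any size (1.33%, against 12.6% of all tested loci), 1 with a pseudocount of 0.1 (0.444%, against 2.54%), 1 after TPM (against 2.93%), where 1 was also lower (against 0.147%), and 1 with voom (against 1.91%). The rule found 1033 loci after TPM, 492 under quantile normalization, 131 at 2 times the neonatal mean and 113 with a lowest value of 2 FPKM. The cause of these shifts was not tested.

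In fits without 1 library that kept at least 2 per age, 40 to 52 members were called higher in prepuberty against neonatal (17.8% to 23.1%, against 0.616% to 1.08% of all tested loci). Against prepuberty, 146 to 154 were called lower in puberty (64.9% to 68.4%, against 12.6% to 14.2%) and 132 to 140 in postpuberty (58.7% to 62.2%, against 11.4% to 12.8%). Against neonatal, 30 to 34 were lower in puberty (13.3% to 15.1%, against 19.6% to 21.9%) and 27 to 31 in postpuberty (12% to 13.8%, against 17.7% to 19.8%). Called higher there were 0 and 0 (against 23.4% to 24.9% and 36.3% to 39.4%). In postpuberty against puberty, 0 to 1 were higher (against 1.13% to 1.85%) and 0 lower (against 0.109% to 0.145%). Without puberty replicate 2 or 3, 1 puberty library was left. The members' median log2 change of puberty against prepuberty was then -1.27 or -1.10. Leaving out any 1 library, the rule found 225 to 323 loci. Samples with the same replicate number did not deviate together, with correlations from -0.117 to 0.0469 in 15 pairs. With 2 or 3 libraries per age, such correlations cannot settle whether the numbers pair samples, and the main fit used no pairing. With the replicate number as a block, the calls were 48, 152 and 136 in the comparisons with prepuberty (21.3%, 67.6% and 60.4%, against 0.787%, 13.4% and 11.8% of all tested loci). With that block, 30 and 28 were lower in puberty and postpuberty against neonatal (13.3% and 12.4%, against 20.5% and 17.7%). In postpuberty against puberty 0 were called (against 1.20% higher and 0.116% lower). Members near 1 FPKM with few reads are the least precise.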
